A study of Homo sapiens with 36 samples.

Results

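A set of 10 genes through which tumour cells restrain immune cells was followed through every group of a cell line RNA-seq study: the surface ligands CD274 (PD-L1), PDCD1LG2 (PD-L2), CD276 (B7-H3), VTCN1 (B7-H4), PVR (CD155), NECTIN2 (CD112), LGALS9 (galectin-9) and CD47, and the enzymes NT5E (CD73) and IDO1. They were chosen by name for these roles, and all 10 symbols were found among the 58735 genes of the count table. The 36 libraries came from HN4, HN6 and Cal27, 3 lines established from squamous carcinomas of the human head and neck, with 3 libraries in each of 12 groups. In one experiment a line was left untreated or was given recombinant human interleukin-8 (IL-8, a neutrophil-attracting chemokine) at 100 ng per ml for 24 h, with the stated aim of comparing lines by their level of the IL-8 receptor CXCR1. In the other a line was transfected with an empty vector plasmid or with a plasmid carrying ACLY, ATP-citrate lyase, which makes cytosolic acetyl-CoA, to ask what lies downstream of that enzyme. Every group was grown in medium with exosome-depleted serum as a culture of a carcinoma line, and the labels name no immune cell that could receive the ligands. The labels do not say whether replicates were separate cultures, whether transfected cells were selected or cloned, how long after transfection they were taken, or whether untreated cells received a carrier. Each p-value thus rests on spread between libraries alone, and that spread could be technical.

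By way of background, PD-L1 and PD-L2 engage PD-1 on T cells and weaken T cell receptor signalling, and antibodies against this pair are used to treat squamous carcinoma of the head and neck. B7-H3 and B7-H4 are relatives of PD-L1 that also restrain T cells. PVR and NECTIN2 bind the inhibitory receptor TIGIT and the activating receptor CD226 on T and natural killer cells. Galectin-9 binds TIM-3, and CD47 binds SIRPA on macrophages and blocks engulfment. CD73 turns extracellular AMP into adenosine and IDO1 turns tryptophan toward kynurenine, and both products damp T cells. Transcription of CD274 and IDO1 is classically raised by interferon-gamma through JAK kinases and IRF1.

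Levels are CPM, the reads of a gene relative to all reads of its library scaled with TMM factors over the 36 libraries. Means carry the SD of the 3 libraries of a group (n = 3). TPM, which also divides by gene length, is named where used. A gene is called when its adjusted p in the edgeR quasi-likelihood test over all tested genes is below 0.05. Libraries held 16570601 to 20232735 counts, so a gene with no read may stand as high as 0.148 to 0.181 CPM, by library (3 counts, counting error only). ACLY was 268 ± 4.98 CPM in HN6 with the vector and 2210.4 ± 65.4 with its plasmid. It was 230.1 ± 12.1 and 1900.3 ± 40.1 CPM in Cal27, but 1508 ± 10.0 CPM in the HN4 libraries labelled vector and 348 ± 30.4 in those labelled ACLY. That group goes against its label, so the HN4 libraries of this experiment are named by their labels throughout. The HN4 libraries labelled vector also lay close to HN4 with IL-8 (1351 ± 18.1 CPM of ACLY): 17 of 19349 genes were called between them, none of the 10. Over 24 genes otherwise read only in HN4, the Cal27 libraries with IL-8 stood at a median of 0.291 ± 0.0114 of the untreated HN4 level and those with the ACLY plasmid at 0.496 ± 0.0166, against 0 in both Cal27 control groups. Every change with treatment in Cal27 given below comes from these libraries, and the part of HN4 transcripts in it was not tested. Of the Cal27 libraries with IL-8 the third had 1.06%, and of the HN4 libraries labelled ACLY the third had 2.15%, of counts on mitochondrial genes, where the other 34 had 3.16% to 6.24%. The epithelial genes TP63, EPCAM and CDH1 were read in all 3 lines. KRT14 stood at 0 in untreated HN4 and at 1017 ± 83.1 CPM in untreated Cal27. KRT6A was at 5.71 ± 1.52 CPM in untreated HN4 and 646 ± 36.5 in untreated Cal27, and KRT17 at 6.06 ± 0.530 and 480 ± 28.2. The leukocyte genes PTPRC, CD3D and MS4A1 did not pass 0.228 CPM in any library, while other genes of that list were read. Over the 9 untreated libraries CSF1R was at 11.7 to 15.4 CPM, CD14 at 2.57 to 6.88 and ITGAM at 0.0510 to 9.04. In bulk libraries, fewer cells of a kind and less RNA per cell cannot be told apart.

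Promoter sequence is shown for CD274, PVR and VTCN1, 3 of the 5 genes called in opposite directions in HN6 and Cal27 with the ACLY plasmid, to set letters of interferon elements beside those opposite changes. The windows are RefSeq's (GRCh38.p14) and start 250 bases before the annotated start, and only the bases that also precede the gene's start in the count table are printed, 5′ to 3′ on the gene's own strand. Capitals mark letters that match the core of the interferon-stimulated response element (GAAANNGAA) or a STAT site (TTCNNNGAA) on either strand. The CD274 stretch is chr9:5450292-5450502 on the plus strand, PVR is chr19:44643660-44643797 on the plus strand and VTCN1 is chr1:117210961-117211177 on the minus strand.
CD274: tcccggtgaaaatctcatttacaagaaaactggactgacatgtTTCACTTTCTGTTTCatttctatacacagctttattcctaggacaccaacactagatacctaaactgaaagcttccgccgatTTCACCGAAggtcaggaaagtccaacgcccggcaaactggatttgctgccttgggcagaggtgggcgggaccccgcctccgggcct
PVR: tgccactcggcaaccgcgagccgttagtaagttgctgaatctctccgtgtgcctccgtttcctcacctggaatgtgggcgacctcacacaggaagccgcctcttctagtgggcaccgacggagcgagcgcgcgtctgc
VTCN1: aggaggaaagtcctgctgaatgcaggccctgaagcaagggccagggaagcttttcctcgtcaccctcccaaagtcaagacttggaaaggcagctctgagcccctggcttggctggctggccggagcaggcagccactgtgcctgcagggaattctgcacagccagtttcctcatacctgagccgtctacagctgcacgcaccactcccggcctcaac

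CD274 alone of the 3 held such letters, 2 GAAANNGAA matches that overlap each other, TTCACTTTC and TTCTGTTTC read on the plus strand, and TTCACCGAA as a STAT match. Of the 10 genes, 8 were searched, and these 8 had 9 windows of 300 bases, since CD276 had 2. IDO1, on chromosome 8, was left out of the search, and no RefSeq promoter was matched for PDCD1LG2. GAAANNGAA was also found once near the RefSeq start of LGALS9. That window begins at base 27630938, inside the gene of the count table, which starts at 27629798. The windows of CD276, CD47 and NT5E also lie inside the counted gene. GAAANNGAA was thus held by 2 of the 8 genes, against 8.11% of 35116 promoters of the same length. TTCNNNGAA was in 1 of the 8 against 7.66%, and these shares are per promoter, not per gene. The letters ACGTG, the hypoxia response core, were found in CD47 and in the second CD276 window (21.4% of all promoters), while the NF-kB letters GGGACTTTC (0.387%) and GGGAATTTC (0.316%) and the E-box CACGTG (7.26%) were in none. All were searched on both strands, ACGTG is part of CACGTG, and a match describes letters only. CD274 and PDCD1LG2 are neighbours on chromosome 9 (5450503 to 5470566 and 5510570 to 5571254, hg38, plus strand), 40003 bases apart. PVR (44643798 to 44663583) and NECTIN2 (44846175 to 44889228) lie 182591 bases apart on the plus strand of chromosome 19.

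Per gene length, NT5E was the most abundant of the 10 transcripts over the 36 libraries, with a mean of 316 TPM, followed by PVR (128 TPM), CD47 (91.3 TPM), CD276 (83.6 TPM), NECTIN2 (74.9 TPM) and CD274 (22.3 TPM). PDCD1LG2 (8.07 TPM), LGALS9 (4.02 TPM), VTCN1 (1.90 TPM) and IDO1 (0.764 TPM) were low. All 10 passed the filter on low counts, VTCN1 and IDO1 through groups of HN6 or Cal27, since their reads in HN4 were few. The lines carried different sets. Untreated HN4 was highest in CD274, PDCD1LG2, PVR and NT5E, untreated HN6 in CD276 and NECTIN2, and untreated Cal27 in CD47, LGALS9, VTCN1 and IDO1. Between untreated HN6 and HN4, 4 genes were higher and 4 lower of the 10, where 67.2% of all 18398 tested genes were called (32.4% higher, 34.7% lower), and 8 did not overlap, beside 75.5%. Cal27 against HN4 also had 4 higher and 4 lower (background 63.6%, 32.2% higher and 31.4% lower), with none of the 10 overlapping (background 73.3%). Cal27 against HN6 had 4 higher and 5 lower (background 68.4%, 35.3% higher and 33.1% lower), again with none overlapping (background 75.5%). The counts against HN4 include VTCN1, and the Cal27 counts include IDO1, which passed the filter through the groups where they are high. The median log2 difference over the 10 was 0.16, -0.011 and -0.45 in these comparisons, beside -0.033, 0.0022 and 0.030 over all tested genes.

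**Figure D1:**
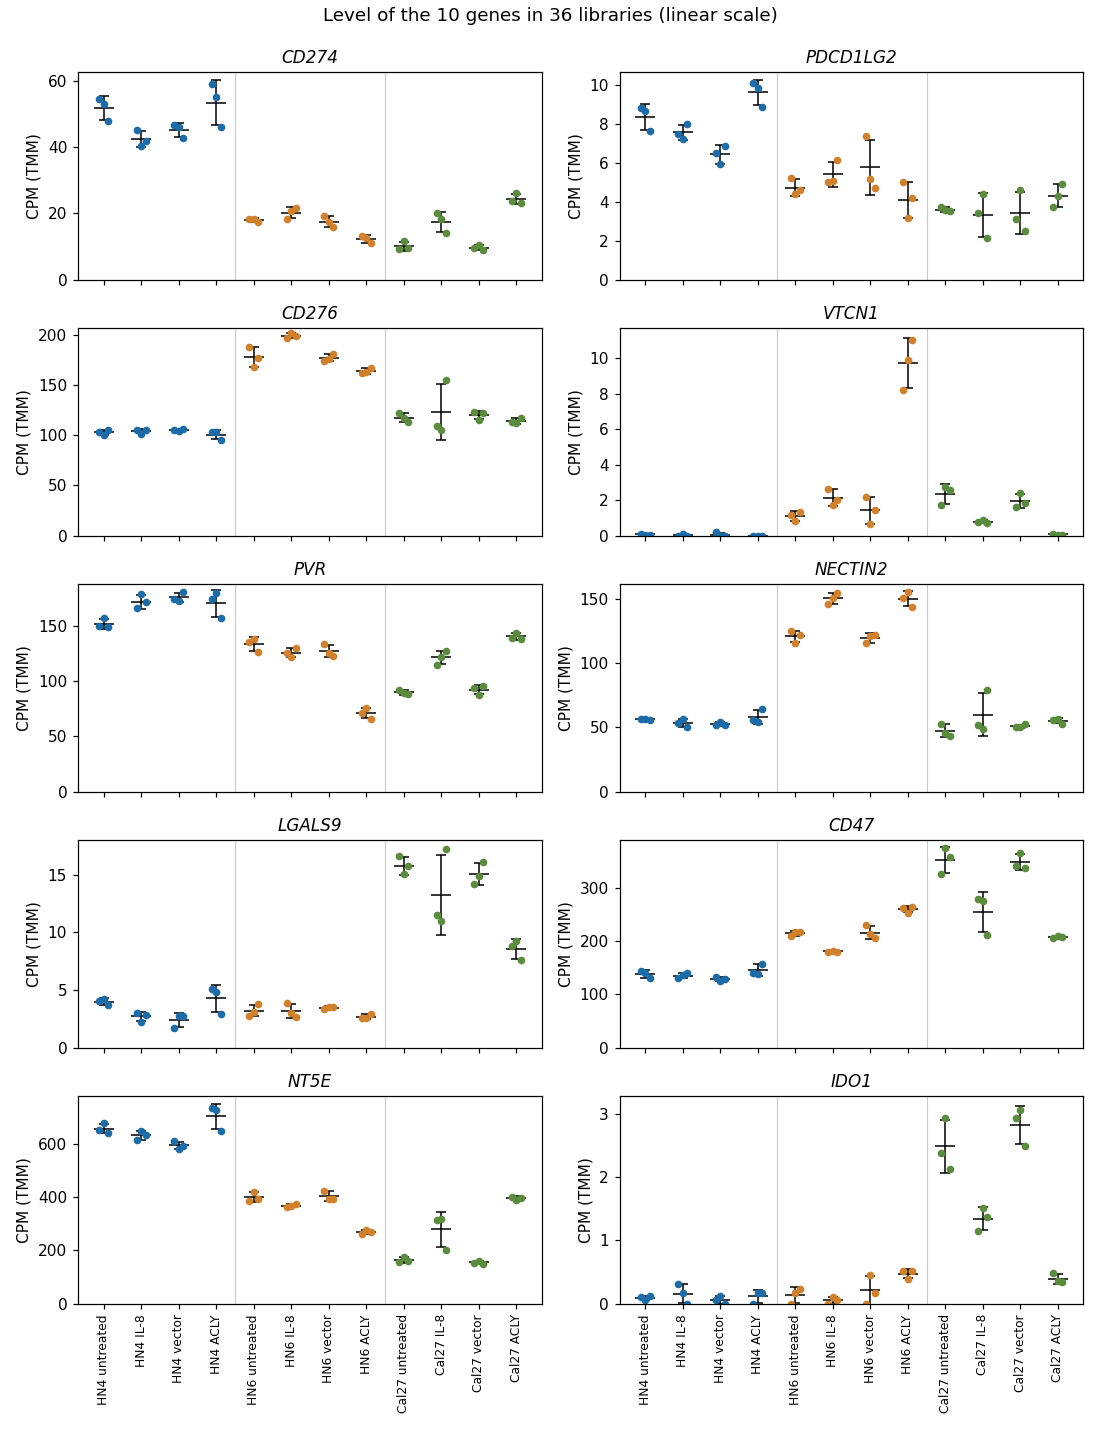
Level of each of the 10 genes (CPM with TMM factors, linear axes from 0) in the 12 groups, with a point for each of 36 libraries and a bar for the mean and SD of 3. CD274 and NT5E are highest in the 4 HN4 groups, CD47, LGALS9 and IDO1 in the Cal27 control groups, and VTCN1 in HN6 with the ACLY plasmid (9.73 CPM).

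CD274, the PD-L1 gene, was read at 54.6, 53.1 and 47.8 CPM in the untreated HN4 libraries, 18.3, 18.4 and 17.4 in HN6 and 9.25, 11.7 and 9.46 in Cal27. The 3 lines did not overlap. The log2 difference of HN6 minus HN4 was -1.53 ± 0.11 (SE, edgeR adjusted p = 1.42e-09), that of Cal27 minus HN4 was -2.34 ± 0.12 (SE, edgeR adjusted p = 7.54e-12), and that of Cal27 minus HN6 was -0.80 ± 0.12 (SE, edgeR adjusted p = 1.03e-05). With the ACLY plasmid the Cal27 libraries held 23.6, 26.1 and 23.1 CPM, all above the vector libraries at 9.59, 10.4 and 8.99, a 2.50-fold rise (log2 1.32 ± 0.10 SE, edgeR adjusted p = 3.15e-13). In HN6 the change went the other way, from 19.3, 17.5 and 15.8 with the vector to 13.3, 12.5 and 11.04 with ACLY, a log2 change of -0.52 (standard error 0.10, edgeR adjusted p = 8.81e-05), and the groups did not overlap. With IL-8, CD274 rose in Cal27 to 19.98, 18.3 and 14.03 CPM (log2 0.77 ± 0.12 SE, edgeR adjusted p = 8.08e-05), with the third library nearest to the untreated ones. Without it the log2 change was 0.90. Neither HN6 with IL-8 at 18.4, 20.6 and 21.6 CPM (adjusted p = 0.355, edgeR) nor HN4 with IL-8 at 45.2, 40.4 and 41.8 (adjusted p = 0.0913, edgeR) was called, although the 3 HN4 libraries with IL-8 all lay below the 3 untreated ones. HN4 libraries labelled ACLY held 59.1, 55.0 and 45.9 CPM and those labelled vector 46.5, 46.2 and 42.9, which overlap. The call, log2 0.25 ± 0.087 (SE, edgeR adjusted p = 0.0234), was lost without the third library labelled vector (0.21) or without the first (0.17) or second (0.22) labelled ACLY. The response differed among lines both for IL-8 (edgeR adjusted p = 2.42e-04) and for the plasmid (edgeR adjusted p = 2.07e-12). In the order of its 12 group means, from 53.4 CPM in HN4 labelled ACLY down to 9.65 in Cal27 with the vector, 7 of the 11 neighbouring pairs overlapped. The gaps were those between HN4 untreated and labelled vector, between HN4 with IL-8 and Cal27 with ACLY, between Cal27 with ACLY and HN6 with IL-8, and between Cal27 with IL-8 and HN6 with ACLY.

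PDCD1LG2, the PD-L2 gene next to CD274, had the same order of untreated lines at a lower level, 8.82, 8.67 and 7.62 CPM in HN4, 5.205, 4.39 and 4.61 in HN6 and 3.72, 3.57 and 3.52 in Cal27. HN4 exceeded both other lines, with log2 differences of -0.83 ± 0.16 (SE, edgeR adjusted p = 2.31e-04) for HN6 minus HN4 and -1.20 ± 0.17 (SE, edgeR adjusted p = 5.98e-06) for Cal27 minus HN4, while Cal27 against HN6 was not called (adjusted p = 0.076, edgeR). Taken from the vector libraries in place of the untreated ones, HN6 against HN4 was -0.16 (edgeR adjusted p = 0.445), where the HN4 libraries labelled vector held 6.43 ± 0.470 CPM. HN4 libraries labelled ACLY, at 10.1, 9.87 and 8.89 CPM, all exceeded those labelled vector (log2 0.58 ± 0.18 SE, edgeR adjusted p = 0.0085). In HN6 the ACLY libraries at 5.00, 3.14 and 4.17 CPM overlapped the vector libraries at 7.40, 5.18 and 4.73, and the call (-0.49 ± 0.20 SE, edgeR adjusted p = 0.0353) was lost without the first vector library (log2 -0.27) or without the second (-0.33) or the third (-0.50) ACLY library. Unlike CD274, PDCD1LG2 was not called in Cal27 with IL-8 (log2 -0.12 ± 0.18 SE, edgeR adjusted p = 0.623) or with ACLY (0.33 ± 0.20 SE, edgeR adjusted p = 0.16). Without the second Cal27 vector library the ACLY change was 0.61 (edgeR adjusted p = 0.019). Whether the 2 genes differ in their response was not tested.

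CD276, which encodes B7-H3, had no call in any of the 6 treatment comparisons. Its untreated libraries held 103, 101 and 106 CPM in HN4, 188, 168 and 177 in HN6 and 122.5, 117 and 113 in Cal27. HN6 stood above HN4 (log2 0.78 ± 0.11 SE, edgeR adjusted p = 7.73e-06) and above Cal27 (Cal27 minus HN6 -0.57 ± 0.11 SE, edgeR adjusted p = 2.05e-04). The 6 log2 changes with treatment lay between -0.11 and 0.18, but with upper-quartile factors CD276 in Cal27 with ACLY was called lower (-0.24). In Cal27 with IL-8 the libraries held 109, 106 and 155 CPM, the third above all others of that line, and without that library the change was -0.15 with edgeR adjusted p = 0.0217.

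VTCN1, which encodes B7-H4, moved in opposite directions in HN6 and Cal27 with the ACLY plasmid, and was a rare transcript. The untreated HN4 libraries had 2, 1 and 1 reads, HN6 had 21, 14 and 23 and Cal27 had 32, 52 and 52, that is 0.0721 ± 0.0258, 1.12 ± 0.287 and 2.34 ± 0.556 CPM. Cal27 exceeded HN6 by log2 1.09 ± 0.29 (SE, edgeR adjusted p = 0.00258). The difference of either from HN4 is a description, with no test, because VTCN1 passed the filter on low counts through HN6 and Cal27. With the ACLY plasmid the HN6 libraries rose to 8.22, 9.92 and 11.04 CPM from 2.18, 0.676 and 1.43 with the vector, a 6.82-fold change (log2 2.77 ± 0.28 SE, edgeR adjusted p = 6.64e-10). All 3 ACLY libraries lay far above the vector libraries. In Cal27 it fell from 33, 45 and 35 reads with the vector to 2, 1 and 1 with ACLY (1.64, 2.38 and 1.82 against 0.107, 0.0503 and 0.0570 CPM), a log2 change of -4.65 ± 0.56 (SE, edgeR adjusted p = 1.63e-08) that rests on 4 reads in the ACLY group. It also fell in Cal27 with IL-8, to 0.764, 0.868 and 0.713 CPM (log2 -1.58 ± 0.30 SE, edgeR adjusted p = 5.69e-04), with no overlap with the untreated libraries. IL-8 in HN6 gave 2.65, 1.72 and 2.03 CPM, all above the untreated 1.19, 0.799 and 1.36, with log2 0.94 ± 0.29 (SE, edgeR adjusted p = 0.0357). The call was lost without either the first or second untreated library, or without the first or the third IL-8 library, where the log2 change ran from 0.75 to 0.99. HN4 libraries labelled vector had 3 reads in all and those labelled ACLY had 0, so no fold is given there. The plasmid response differed among lines (edgeR adjusted p = 1.07e-11), as did the IL-8 response (5.26e-04).

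PVR, the CD155 ligand of TIGIT and CD226, was abundant in every line. Untreated libraries held 149.6, 157 and 149 CPM in HN4, 136, 138 and 127 in HN6 and 92.2, 89.3 and 88.0 in Cal27, and the lines did not overlap. Cal27 was below HN4 (log2 -0.74 ± 0.066 SE, edgeR adjusted p = 1.91e-08) and below HN6 (-0.54 ± 0.066 SE, edgeR adjusted p = 9.83e-07), and the smaller difference of HN6 from HN4 (-0.20 ± 0.066 SE, edgeR adjusted p = 0.0133) was not called without the second HN4 library (edgeR adjusted p = 0.0615) or the third HN6 library (0.0729), nor with no filter on low counts (0.165). With the ACLY plasmid PVR fell in HN6 from 133, 125 and 122 to 70.9, 75.3 and 66.0 CPM (log2 -0.84 ± 0.059 SE, edgeR adjusted p = 2.38e-14) and rose in Cal27 from 93.4, 87.8 and 95.1 to 139, 144 and 138 (log2 0.60 ± 0.057 SE, edgeR adjusted p = 4.68e-11). Neither pair of groups overlapped. With IL-8 it rose in Cal27 to 115, 122 and 127 CPM (log2 0.42 ± 0.066 SE, edgeR adjusted p = 9.34e-05). In HN4 the IL-8 libraries at 166, 178 and 171 CPM all exceeded the untreated ones without a call (log2 0.18 ± 0.065 SE, edgeR adjusted p = 0.0783; DESeq2 adjusted p = 0.00896), and the libraries labelled ACLY and vector differed by -0.041 ± 0.056 (SE, edgeR adjusted p = 0.604). Responses differed among lines for the plasmid (edgeR adjusted p = 2.76e-16) and for IL-8 (0.00152).

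NECTIN2, the other ligand of this receptor pair, was highest in HN6. It stood at 125, 116 and 122 CPM in untreated HN6, above HN4 at 56.6, 56.1 and 55.7 (log2 1.09 ± 0.14 SE, edgeR adjusted p = 1.36e-06) and Cal27 at 52.9, 45.4 and 43.4 (Cal27 minus HN6 -1.32 ± 0.14 SE, edgeR adjusted p = 1.22e-07). In HN6 it rose with ACLY, the direction opposite to PVR, from 115, 121 and 122 to 151, 155 and 144 CPM with no overlap (log2 0.33 ± 0.058 SE, edgeR adjusted p = 1.09e-05). The HN6 libraries with IL-8 held 146, 151 and 154 CPM and also lay above all untreated ones, a log2 change of 0.33 ± 0.13 (SE, edgeR adjusted p = 0.11) that was not called. Cal27 with IL-8 held 52.1, 48.6 and 78.9 CPM, the third library apart from the other 2, and its log2 change of 0.33 became 0.072 without that library. The change was called without the first untreated library (0.43, edgeR adjusted p = 0.0372) or without the first (0.43, 0.023) or the second (0.47, 0.00787) IL-8 library. The plasmid response differed among lines with edgeR adjusted p = 0.0368, a call lost when any of 15 of the 18 libraries was left out.

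LGALS9, which encodes galectin-9, was mainly read in Cal27. Its untreated libraries held 16.6, 15.03 and 15.7 CPM in Cal27, 4.08, 4.22 and 3.66 in HN4 and 2.77, 3.08 and 3.78 in HN6, and Cal27 exceeded HN4 by log2 2.00 ± 0.18 (SE, edgeR adjusted p = 2.39e-08) and HN6 by 2.33 ± 0.19 (SE, edgeR adjusted p = 4.46e-09). HN6 against HN4 was -0.33 ± 0.21 (SE, edgeR adjusted p = 0.173) in the untreated libraries and 0.52 (edgeR adjusted p = 0.0233) in the vector libraries, so its sign turned with the libraries used. LGALS9 fell in Cal27 with ACLY from 14.2, 14.9 and 16.1 to 8.83, 9.20 and 7.58 CPM (log2 -0.83 ± 0.15 SE, edgeR adjusted p = 1.07e-05). HN4 libraries labelled ACLY, at 5.09, 4.82 and 2.94 CPM, lay above those labelled vector at 1.73, 2.70 and 2.74 (log2 0.83 ± 0.20 SE, edgeR adjusted p = 9.98e-04). In Cal27 with IL-8 the values were 11.5, 10.96 and 17.2 CPM, the third above and the other 2 below the untreated libraries, and the change of -0.27 ± 0.16 (SE, edgeR adjusted p = 0.207) became -0.51 (edgeR adjusted p = 0.00165) without the third. LGALS9 has near-identical copies on chromosome 17, and its level is uncertain, as the handling of reads that match several places is not stated.

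CD47, the signal against engulfment, was highest in Cal27. Untreated Cal27 held 326, 374 and 357 CPM, HN6 209, 217 and 217 and HN4 144, 140.1 and 129.7, with no overlap between lines. Cal27 exceeded HN4 by log2 1.37 ± 0.085 (SE, edgeR adjusted p = 1.20e-10) and HN6 by 0.75 ± 0.083 (SE, edgeR adjusted p = 3.24e-07), and HN6 exceeded HN4 by 0.63 ± 0.084 (SE, edgeR adjusted p = 3.12e-06). CD47 fell in Cal27 with ACLY from 341, 365 and 337 to 205, 209 and 208 CPM (log2 -0.76 ± 0.052 SE, edgeR adjusted p = 9.46e-15) and with IL-8 to 278, 274 and 212 (log2 -0.48 ± 0.083 SE, edgeR adjusted p = 2.30e-04), where the third library was lowest and the change without it was -0.37. In HN6 it rose with ACLY from 229, 212 and 206 to 262, 253 and 263 CPM (log2 0.27 ± 0.052 SE, edgeR adjusted p = 4.95e-05). The HN6 libraries with IL-8 held 179.9, 182 and 179 CPM, all below the untreated ones, with log2 -0.24 ± 0.083 (SE, edgeR adjusted p = 0.0607) and no call (DESeq2 adjusted p = 0.0437). HN4 libraries labelled ACLY held 139.9, 139 and 157 CPM against 133, 124 and 129 for those labelled vector, log2 0.18 ± 0.054 (SE, edgeR adjusted p = 0.00711). Without the third library labelled ACLY the change was 0.11 (edgeR adjusted p = 0.0679). The response to the plasmid (edgeR adjusted p = 9.14e-15) and to IL-8 (0.0162) differed among lines.

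NT5E, the gene of the adenosine-forming enzyme CD73, was read at 654, 679 and 644 CPM in untreated HN4, 386, 421 and 394 in HN6 and 156, 174 and 161 in Cal27. The lines did not overlap, and the log2 difference was -0.73 ± 0.11 (SE, edgeR adjusted p = 1.51e-05) for HN6 minus HN4, -1.99 ± 0.12 (SE, edgeR adjusted p = 4.81e-11) for Cal27 minus HN4 and -1.26 ± 0.11 (SE, edgeR adjusted p = 1.78e-08) for Cal27 minus HN6. With ACLY it rose in Cal27 from 152, 162 and 149.6 to 403, 388 and 398 CPM, 2.54-fold (log2 1.34 ± 0.051 SE, edgeR adjusted p = 6.12e-22). In HN6 it fell from 426, 392 and 395 to 263, 276 and 269.8 (log2 -0.58 ± 0.05 SE, edgeR adjusted p = 4.02e-12). Both changes left the groups without overlap. NT5E also rose in Cal27 with IL-8, to 315, 319 and 203 CPM (log2 0.75 ± 0.11 SE, edgeR adjusted p = 5.47e-05), with the third library lower than the others, and 0.93 without it. HN4 libraries labelled ACLY held 735, 730.2 and 651 CPM and those labelled vector 610.4, 584 and 595 (log2 0.25 ± 0.049 SE, edgeR adjusted p = 1.09e-04). The lines differed in response to the plasmid (edgeR adjusted p = 1.52e-21) and to IL-8 (4.63e-04). In the order of its 12 group means 6 of the 11 neighbouring pairs overlapped.

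IDO1, the kynurenine-forming enzyme, was close to the limit of detection outside Cal27. The untreated Cal27 libraries had 45, 56 and 43 reads (2.49 ± 0.415 CPM), against 2, 1 and 2 in HN4 and 0, 3 and 4 in HN6. These line differences are a description, with no test, because IDO1 passed the filter on low counts through the Cal27 libraries in which it is high. The same limit holds for its fall within Cal27. In Cal27 it fell with ACLY from 2.93, 3.07 and 2.50 to 0.481, 0.352 and 0.342 CPM (log2 -2.84 ± 0.45 SE, edgeR adjusted p = 1.51e-06). With IL-8 the Cal27 libraries held 1.15, 1.52 and 1.37 CPM, all below the untreated 2.39, 2.94 and 2.13, a log2 change of -0.90 ± 0.36 (SE, edgeR adjusted p = 0.0539) that just missed the threshold (DESeq2 adjusted p = 0.0198). HN6 with ACLY had 9, 7 and 10 reads against 0, 8 and 3 with the vector, and the log2 change of 1.15 ± 0.63 (SE, edgeR adjusted p = 0.131) was not called. Without the second vector library, which had 8 reads, it was 2.37 (edgeR adjusted p = 0.0179).

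Counted over the 10 genes, calls with the ACLY plasmid ran in different directions in HN6 and Cal27. In HN6, 3 were called higher (VTCN1, NECTIN2, CD47) and 4 lower (CD274, PDCD1LG2, PVR, NT5E), where 51.6% of 18556 tested genes were called, 26.8% higher and 24.9% lower. The 3 and 3 libraries did not overlap for 8 of the 10, beside 58.2% of all genes. In Cal27, 3 were higher (CD274, PVR, NT5E) and 4 lower (VTCN1, LGALS9, CD47, IDO1), where 63.2% of all genes were called, 34.2% higher and 29.0% lower. Here too 8 of the 10 did not overlap, beside 69.8%. These Cal27 counts include IDO1, which passed the filter on low counts through the Cal27 libraries in which it is high. CD274, PVR, NT5E, VTCN1 and CD47 were thus called in both lines with opposite signs. Each of these 5 changes in Cal27 went toward the untreated HN4 level. The Cal27 libraries with ACLY held HN4-only genes at a share of 0.496, and the part of HN4 transcripts in these changes was not tested. HN4 libraries labelled ACLY had 5 genes higher than those labelled vector (CD274, PDCD1LG2, LGALS9, CD47, NT5E) and none lower, beside 38.1% of all genes (18.9% higher, 19.1% lower), and 5 did not overlap, beside 44.7%. Of the 10, 9 differed in the plasmid response among lines, all but CD276 (edgeR adjusted p = 0.789), and 70.9% of all genes did so. The 9 include IDO1, with the same limit. Medians over the 10 were 0.21 in HN4, -0.24 in HN6 and 0.0065 in Cal27, beside 0.013, 0.036 and 0.027 over all tested genes. Set against those backgrounds, the counts are no result about the 10 genes as a group.

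With IL-8, none of the 10 was called in HN4 (edgeR; 3 at an unadjusted p under 0.05, and 1 with DESeq2), beside 14.0% of 18398 genes (6.89% higher, 7.09% lower), and 3 did not overlap, beside 44.7%. In HN6 only VTCN1 was called higher by edgeR, beside 15.4% of all genes (7.61% higher, 7.81% lower), 5 did not overlap, beside 44.5%, and 2 genes (VTCN1 and CD47) were called with DESeq2. When the third Cal27 library with IL-8, low in mitochondrial counts, was left out of the shared fit, an alternative chosen after seeing the data, the HN6 count was 5 (CD276, VTCN1 and NECTIN2 higher, CD47 and NT5E lower) and all genes called went from 2837 to 6194. The HN4 count was then 3 (PVR higher, CD274 and LGALS9 lower), with all genes from 2572 to 5738. In Cal27, 3 were higher (CD274, PVR, NT5E) and 2 lower (VTCN1, CD47), beside 39.4% of all genes (22.7% higher, 16.7% lower), and 6 did not overlap, beside 43.3%. The same 5 genes were called in Cal27 with the ACLY plasmid, each in the same direction, and HN4-only genes were read in both treated groups (shares of 0.291 and 0.496). The IL-8 response differed among lines for these 5 genes, beside 40.2% of all genes, and for CD276 (edgeR adjusted p = 0.655), PDCD1LG2 (0.389), LGALS9 (0.297), NECTIN2 (0.144) and IDO1 (0.342) no difference was called. Without the third Cal27 library with IL-8 the count was 7, with CD276 (edgeR adjusted p = 7.67e-04) and NECTIN2 (4.94e-04) added. ACLY itself was 1170.1 ± 110.3 CPM in Cal27 with IL-8 and 233 ± 4.98 in untreated Cal27, and 224 ± 3.15 against 280.2 ± 4.17 in HN6.

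**Figure D2:**
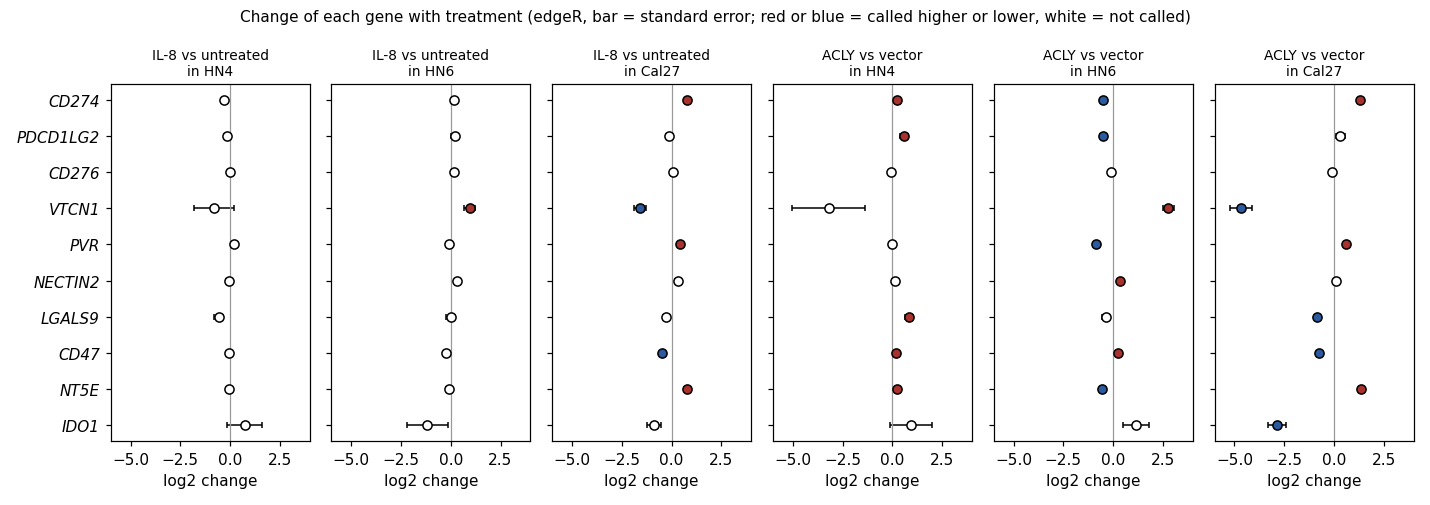
Log2 change of each gene with treatment (edgeR, bars are standard errors) in 6 comparisons, IL-8 against untreated and ACLY against vector plasmid in each line; filled points are called, red higher and blue lower. CD274, PVR and NT5E lie right of 0 in both Cal27 panels and left of it in HN6 with ACLY, and VTCN1 and IDO1 in HN4 rest on a few reads.

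Since treated Cal27 held reads of HN4-only genes, each level there was set beside the level that a mixture of untreated HN4 and the Cal27 control would have at the measured share. NT5E in Cal27 with ACLY was 396 ± 7.43 CPM beside a mixture level of 405, a ratio of 0.979. For 7 of the 10 genes, among them CD274 (ratio 0.794), PVR (1.15), CD47 (0.851), LGALS9 (0.894) and CD276 (1.02), it lay between 0.794 and 1.15. PDCD1LG2 stood at 0.736, IDO1 at 0.266 (0.392 CPM beside 1.47) and VTCN1 at 0.0703 (0.0714 CPM beside 1.02), so these 2 rare transcripts were below both the control and the mixture level. With IL-8 the ratio was 0.906 for NT5E, 0.784 for CD274, 1.12 for PVR, 0.877 for CD47, 0.750 for IDO1 and 0.466 for VTCN1. These ratios depend on the HN4 group used. With the HN4 libraries labelled vector in place of untreated HN4, the ratio in Cal27 with ACLY was 0.856 for PDCD1LG2, 0.839 for CD274 and 1.02 for PVR. It was then 1.04 for LGALS9, 0.295 for IDO1 and 0.0774 for VTCN1. The mixture has no error of its own here, and the part of HN4 transcripts in the Cal27 changes was not tested.

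**Figure D3:**
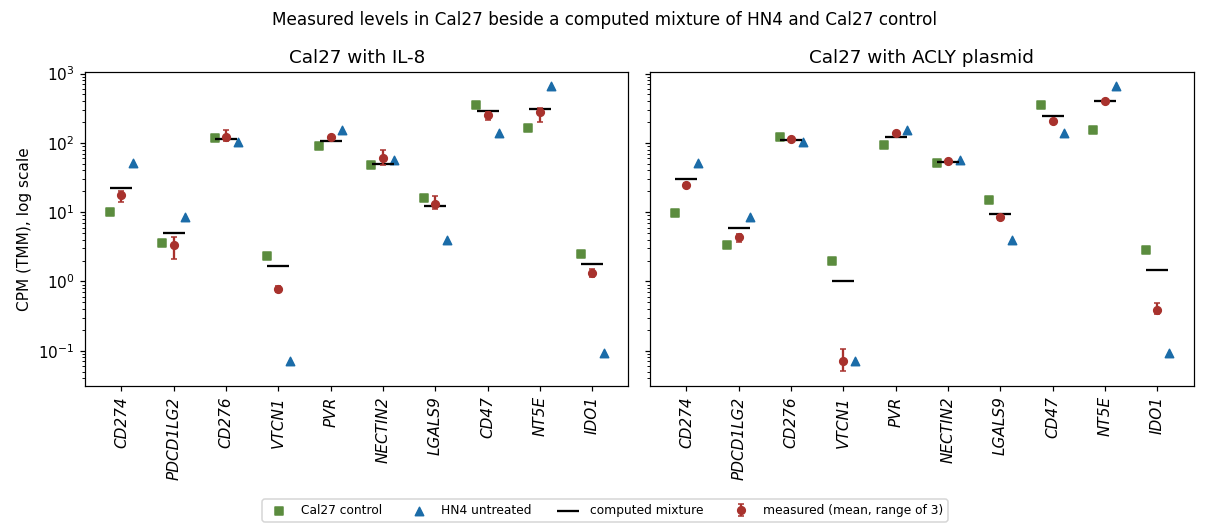
Level in Cal27 (CPM, log axis) for each gene with IL-8 (left) or the ACLY plasmid (right): the Cal27 control (square), untreated HN4 (triangle), the computed mixture (line) and the measured mean with the range of 3 libraries (circle). NT5E and CD276 with ACLY sit on the line (ratios 0.979 and 1.02), and VTCN1 and IDO1 sit below it (ratios 0.0703 and 0.266).

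Line differences were also read in the vector libraries, with HN4 as labelled, where 69.3%, 71.8% and 73.3% of 18556 genes were called in HN6 against HN4, Cal27 against HN4 and Cal27 against HN6. The direction was the same as in the untreated libraries for every gene called there, and the 2 sets share no library. CD274 in Cal27 against HN4 was -2.22 beside -2.34, NT5E -1.94 beside -1.99 and CD47 1.44 beside 1.37. VTCN1 in Cal27 against HN6, called at 1.09 in the untreated libraries, was 0.46 in the vector libraries (edgeR adjusted p = 0.20).

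**Figure D4:**
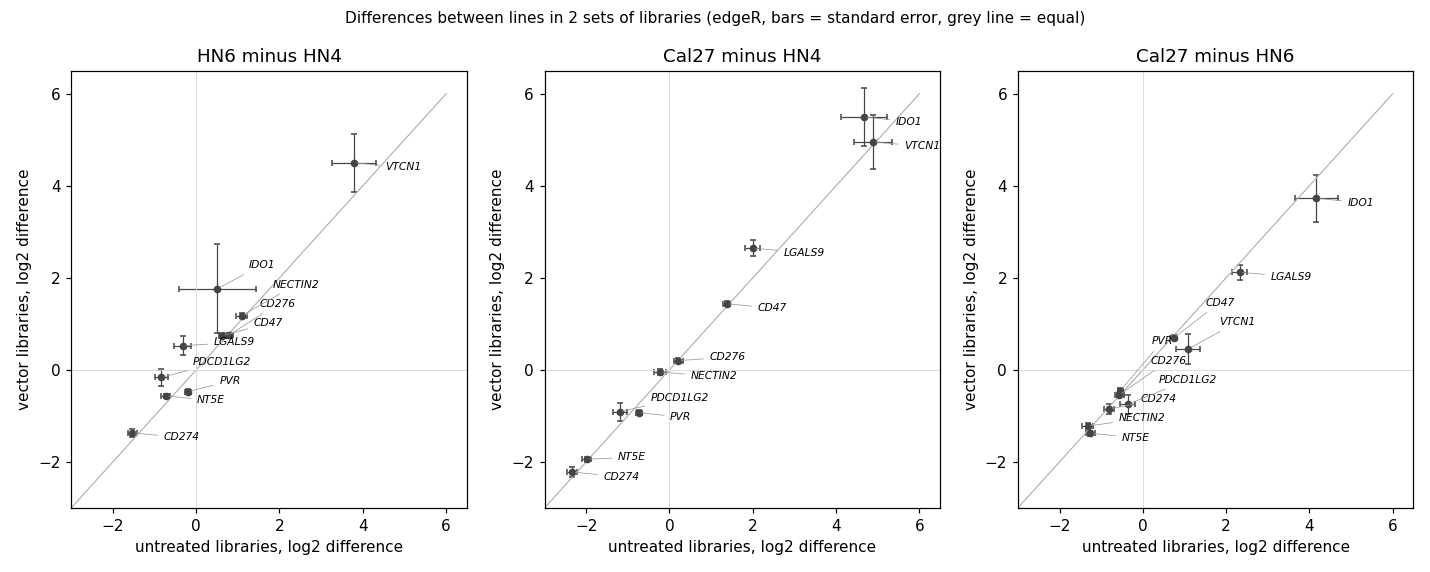
Log2 difference between lines for the 10 genes in the vector libraries (vertical) against the untreated libraries (horizontal), with standard errors; the grey line marks equal values. Most points follow the line, LGALS9 in HN6 minus HN4 changes sign (-0.33 and 0.52), and VTCN1 and IDO1 have the widest bars.

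Genes around the CD274 pathway were taken from lists of 14 genes of the interferon-gamma route and 17 genes of adenosine and kynurenine handling. Of the 14 interferon route genes, ACLY in HN6 raised 9 and lowered 3, ACLY in Cal27 raised 6 and lowered 5, and HN4 labelled ACLY had 6 higher and 1 lower. Over all genes these comparisons called 26.8% higher and 24.9% lower, 34.2% higher and 29.0% lower, and 18.9% higher and 19.1% lower. The medians were 0.27, -0.036 and 0.12. STAT2, a transcription factor of interferon signalling, rose in HN6 with ACLY from 56.2 ± 3.02 to 142 ± 3.34 CPM (edgeR adjusted p = 3.04e-19), while CD274 fell there. IFNGR1, the ligand-binding interferon-gamma receptor chain, fell in Cal27 with ACLY from 164 ± 8.52 to 75.4 ± 1.70 CPM (edgeR adjusted p = 9.41e-19). SOCS1, which restrains JAK signalling, fell from 5.26 ± 0.810 to 2.22 ± 0.355 CPM (edgeR adjusted p = 5.93e-06). In the same Cal27 groups JAK1 was at 185.6 ± 6.75 CPM with the vector and 113.8 ± 7.57 with ACLY. IRF1 was at 113.3 ± 2.53 and 112.6 ± 5.77 CPM. Whether any of these genes bears on CD274 was not tested. CMTM6, whose protein keeps PD-L1 at the cell surface, rose in Cal27 with ACLY from 102 ± 7.06 to 178 ± 1.86 CPM (edgeR adjusted p = 1.14e-15). IL-8 called 3 of the 14 lower in HN4, 1 higher and 1 lower in HN6, and 5 lower in Cal27, including IFNGR1 from 172 ± 9.86 to 97.9 ± 35.6 CPM (edgeR adjusted p = 0.00103), beside 14.0%, 15.4% and 39.4% of all genes. In untreated HN4, IFNGR1 was at 81.1 ± 3.97 CPM, SOCS1 at 1.02 ± 0.286 and CMTM6 at 286 ± 4.82. The treated Cal27 libraries held HN4-only genes, and the part of HN4 transcripts in these Cal27 changes was not tested.

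Of the 17 genes of adenosine and kynurenine handling 15 were tested. ACLY raised 5 and lowered 6 in HN6, raised 7 and lowered 5 in Cal27, and HN4 labelled ACLY had 4 higher and 3 lower. All genes were called at 51.6%, 63.2% and 38.1% in the same order. The medians were 0.11, 0.17 and 0.086. ENTPD1 (CD39), which feeds CD73 with AMP, rose in Cal27 with ACLY from 2.22 ± 0.208 to 5.45 ± 0.496 CPM (edgeR adjusted p = 6.84e-07) and with IL-8 from 2.63 ± 0.391 to 4.43 ± 0.290 CPM (edgeR adjusted p = 9.17e-04), as NT5E did. In HN6 with IL-8 it fell from 5.29 ± 0.287 to 2.68 ± 0.327 CPM (edgeR adjusted p = 2.84e-04). SLC29A1, which carries adenosine into cells, fell in HN6 with ACLY from 101 ± 4.75 to 32.4 ± 2.54 CPM (edgeR adjusted p = 1.47e-19). KYNU, which breaks down kynurenine, rose in HN6 with ACLY from 119 ± 7.19 to 245 ± 6.24 CPM (edgeR adjusted p = 1.57e-18) and fell in Cal27 from 385 ± 16.5 to 202 ± 4.04 CPM (edgeR adjusted p = 6.26e-18), while AHR, the receptor that kynurenine activates, fell in Cal27 from 106 ± 3.72 to 42.8 ± 2.55 CPM (edgeR adjusted p = 3.07e-19). IL-8 called 1 higher and 1 lower in HN4, 2 higher and 5 lower in HN6, and 4 higher and 3 lower in Cal27, where the same backgrounds of 14.0%, 15.4% and 39.4% apply. In untreated HN4, ENTPD1 was at 4.64 ± 0.652 CPM, KYNU at 173 ± 6.97 and AHR at 42.3 ± 1.88. Here too the part of HN4 transcripts in the Cal27 changes was not tested.

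Markers of other cell types moved beside these changes. With ACLY, 26.8% of all tested genes were called higher in HN6, 29.0% lower in Cal27, and 18.9% higher and 19.1% lower in HN4 as labelled. With IL-8, 7.61% were called higher in HN6, and 22.7% higher and 16.7% lower in Cal27. In HN6 with ACLY the 11 endothelial and fibroblast markers summed to 72.1 to 80.5 CPM against 30.3 to 32.1 with the vector, and 6 of 6 tested were called higher, with DCN and PDGFRA at 0. Most of that sum was COL1A1, at 44.9 ± 2.73 CPM with ACLY and 14.8 ± 2.34 with the vector. CDH5 was at 15.9 ± 1.43 and 9.92 ± 0.890 CPM. COL1A2, COL3A1 and KDR did not pass 0.102 CPM in either group. The 10 leukocyte markers summed to 35.3 to 42.2 CPM against 17.7 to 18.8, and 3 of 5 tested were higher, with CD3D and MS4A1 among those at 0. Most of that sum was CSF1R, at 29.6 ± 3.83 CPM with ACLY and 13.1 ± 0.779 with the vector. PTPRC did not pass 0.0551 CPM in either group. In Cal27 with ACLY the endothelial and fibroblast sum was 19.9 to 23.0 CPM against 56.9 to 60.5 (5 of 6 tested lower, KDR, DCN and PDGFRA at 0), the leukocyte sum was 15.6 to 17.2 against 28.6 to 29.8 (3 of 5 lower, CD3D and MS4A1 among those at 0), and 9 of the 10 squamous markers were lower, at 4703 to 4887 CPM in all against 7584 to 8279. The other, EPCAM, went from 234 ± 7.82 CPM up to 370 ± 11.4. In HN6 with ACLY the squamous markers went both ways. There KRT17 went from 61.9 ± 2.04 CPM with the vector to 198 ± 5.51, and EPCAM from 535 ± 3.40 to 449 ± 10.7. In HN4 labelled ACLY the leukocyte sum was 19.0 to 23.7 CPM against 13.6 to 16.5 (2 of 5 tested higher, CSF1R and ITGAM, with PTPRC, CD3D and MS4A1 among those at 0). There the squamous sum was 1730 to 1748 against 1705 to 1738 (3 higher and 5 lower of 10), and the endothelial and fibroblast sum 12.6 to 14.9 against 10.8 to 11.2 (2 of 6 higher). The leukocyte sum in Cal27 with IL-8 was 15.9 to 18.9 CPM against 24.9 to 27.3 (2 of 4 lower, CSF1R and ITGAM, with PTPRC, CD3D and MS4A1 among those at 0). With IL-8 the endothelial and fibroblast sum was 41.3 to 43.1 CPM against 27.0 to 28.8 in HN6 (4 of 7 tested higher) and 33.6 to 38.3 against 55.1 to 55.9 in Cal27 (3 of 7 lower), where 6 of 10 squamous markers were lower and 1 higher. COL1A1 in HN6 was at 21.8 ± 0.573 CPM with IL-8 and 13.6 ± 0.894 untreated. The Cal27 libraries with ACLY and with IL-8 held HN4-only genes at shares of 0.496 and 0.291. In both HN4 groups of the plasmid experiment the squamous sum stood below that of Cal27 with the vector. The part of HN4 transcripts in the Cal27 marker changes was not tested, nor was the part of the markers in the changes of the 10 genes.

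Over the 12 group means, some pairs of the 10 genes followed each other closely and others did not, as a description in which the groups come from only 3 lines. CD274 and NT5E had Pearson's r of 0.95 on log2(CPM + 0.5), CD274 and PDCD1LG2 0.90, and CD276 and NECTIN2 0.93. CD47 ran against NT5E at -0.97 and against CD274 at -0.96, and VTCN1 against PVR at -0.93. NECTIN2 had r of -0.020 with NT5E and 0.064 with CD47, and VTCN1 had 0.12 with LGALS9. Among 11828 protein-coding genes with a mean log2 CPM of at least 1, the pattern most like that of CD274 was FBXL18 (r = 0.993), then ZNF92 (0.990) and DHRSX (0.987). For NT5E these were TGIF2 (0.990), MBD1 (0.990) and RUSC2 (0.990). For VTCN1 they were COL1A1 (0.982), LRRC61 (0.980) and VAV3 (0.979). For CD47 they were RNF227 (0.978), RAPGEF4 (0.977) and CDH5 (0.975).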

How the data were processed

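RNA-seq of 36 libraries (3 lines, 12 groups of 3) was used. The deposited table holds raw read counts per gene, which per the submitters' processing notes were made with CASAVA, HISAT2 2.0.5, featureCounts 1.5.0-p3 and hg38. The roles of these tools, the strand setting, the annotation and the treatment of multiply matching reads are not given in the sources used here. Reads of overlapping or antisense genes may therefore be shared. The table's other column, the gene length deposited by the authors, was used for TPM.

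Each experiment (18 libraries, 12 residual degrees of freedom) was fitted with edgeR 4.0.16 in R 4.3.3 (limma 3.58.1): filterByExpr by group (minimum count 10, total 15), TMM factors, robust quasi-likelihood test, two-sided, with Benjamini-Hochberg adjustment over all tested genes. Standard errors are the absolute log2 change divided by the square root of F. Differences in response among lines were tested together for the 3 lines. DESeq2 1.42.0, other scalings and filters, single libraries left out, and a replicate block were alternatives. The script was tested on simulated data. The HN4 share in a Cal27 library is the median, over genes with at least 10 CPM in untreated HN4 and at most 0.2 CPM in untreated HN6 and both Cal27 controls, of CPM over untreated HN4 CPM.

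The 10 genes and 8 other lists (interferon-gamma route, adenosine and kynurenine, other ligands, natural killer ligands, receptors, and leukocyte, endothelial with fibroblast, and squamous markers) were chosen with earlier results of these data known. Named genes were all 10, ACLY, up to 3 called genes per list and comparison with the largest changes and a mean log2 CPM of at least 1, and the 3 genes most like each member with a mean of at least 1 CPM. Libraries of one group all differed beyond sampling noise (chi-square per degree of freedom 1.99 to 106.9). Pairs with the third Cal27 library with IL-8 were at 104.4 and 106.9. Those with the third HN4 library labelled ACLY were at 36.6 and 41.1, and all other pairs lay between 1.99 and 8.44.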

Additional observations from a re-analysis of the deposited data

Results flagged for a closer look

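The change with IL-8 differed among the 3 lines for 5 of the 10 genes, by edgeR's test of the difference between lines adjusted over all tested genes, where 40.2% of all genes also differed. The adjusted p-values were CD274 (2.42e-04), VTCN1 (5.26e-04), PVR (0.00152), CD47 (0.0162), NT5E (4.63e-04). In each of the 5 the change in Cal27 was the largest in size of the 3 lines, and the Cal27 libraries with IL-8 are those in which HN4-only genes were read.

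The change with the ACLY plasmid differed among lines for 9 of the 10, beside 70.9% of all genes. HN4 was taken as labelled, although its ACLY level goes against the labels, so these values rest on that direction. The adjusted p-values by the same edgeR test were CD274 (2.07e-12), PDCD1LG2 (0.00166), VTCN1 (1.07e-11), PVR (2.76e-16), NECTIN2 (0.0368), LGALS9 (1.85e-06), CD47 (9.14e-15), NT5E (1.52e-21), IDO1 (5.03e-05). IDO1 passed the filter on low counts through the Cal27 libraries in which it is high, and that limits its value here. The part of the HN4 labels and of HN4-only transcripts in Cal27 in these differences was not tested.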

How the results depend on the processing

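Of the values recomputed, 1698 kept their direction and side of the threshold, 40 lost a call, 68 gained one and 25 changed sign. Members called with IL-8 in HN4 went from 0 to 1 with library size alone, upper-quartile factors, a mean of at least 5 CPM, DESeq2 or all 36 libraries, and to 3 without the low-mitochondrial library or with the 6 libraries alone. With IL-8 in HN6 the count of 1 became 2 (library size alone, no filter, DESeq2), 0 (5 CPM, replicate block), 5 (low-mitochondrial library left out, chosen after seeing the data), 3 (all 36) or 4 (6 libraries alone), and ran from 0 to 1 with 1 library left out. HN4 labelled ACLY against vector gave 3 with all 36 libraries. The HN4 shares were 0.309 and 0.556 with stricter genes, and 0.543 for ACLY with HN4 labelled vector as source.

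Sign changes were of values that were not called in the reported fit. CD276 with IL-8 was -0.040, -0.051 and -0.032 in HN4 (library size alone, upper-quartile factors, 5 CPM) and -0.0084 and -0.012 in Cal27 (the first 2). LGALS9 with IL-8 in HN6 was 0.038, 0.044, 0.026 and 0.0020 (these 3 and the 6 libraries alone). With upper-quartile factors CD276 and PVR in HN4 labelled ACLY were 0.0091 and 0.026, and NECTIN2 in Cal27 with ACLY was -0.046, or -0.030 at 5 CPM. LGALS9 in HN6 against HN4 was 0.52 in the vector libraries. With 1 library left out, values that changed sign ran from -0.0014 to 0.032 (CD276, IL-8 in HN4), -0.070 to 0.0047 (CD47, IL-8 in HN4), -0.081 to 1.30 (IDO1, IL-8 in HN4), -0.18 to 0.13 (LGALS9, IL-8 in HN6), -0.36 to 0.10 (PDCD1LG2, IL-8 in Cal27), -0.15 to 0.17 (CD276, IL-8 in Cal27), -0.087 to 0.0092 (PVR, HN4 labelled ACLY) and -0.11 to 1.09 (IDO1, HN6 against HN4).

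Genes called over the whole table rose from 2572 to 5738 and 6551 (IL-8 in HN4) and from 2837 to 6194 and 6025 (in HN6) without the low-mitochondrial library and with 6 libraries alone, and were 1401 to 1782 and 1742 to 2045 with 1 library left out. They fell from 7247 to 2588 with 6 libraries (IL-8 in Cal27), and at 5 CPM from 11700 to 7758 and from 12583 to 8196 (Cal27 against HN4 and HN6). Same-numbered libraries correlated at -0.22 to 0.19, so the numbers were not taken to pair them, and the replicate block changed no other member count past 1.5 times. The causes were not tested. Depth limits VTCN1 and IDO1 in HN4, which had few reads.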

Other observations

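Other ligands of lymphocyte and phagocyte receptors moved beside the 10 genes. Of 24 listed, 20 were tested: with ACLY 13 rose and 1 fell in HN6, 4 rose and 9 fell in Cal27, and 8 were higher and 4 lower in HN4 labelled ACLY, beside 51.6%, 63.2% and 38.1% of all genes called. NECTIN4, a relative of PVR, rose in HN6 from 4.795 ± 0.3003 to 33.4 ± 1.36 CPM (edgeR adjusted p = 2.50e-21), and CD24, a phagocytosis signal like CD47, rose there from 279.5 ± 4.18 to 701 ± 19.6 CPM (edgeR adjusted p = 1.58e-20). Cal27 with ACLY also had more CD24, from 5.77 ± 1.03 to 20.3 ± 0.927 CPM (edgeR adjusted p = 5.36e-19). VSIR (VISTA) fell in Cal27 from 39.0 ± 3.27 to 14.5 ± 0.275 CPM (edgeR adjusted p = 4.61e-15), and NCR3LG1, a ligand of NKp30, rose from 5.37 ± 0.521 to 16.1 ± 0.688 CPM (edgeR adjusted p = 1.67e-13). With IL-8, 2 were higher and 1 lower in HN4, 6 higher and 1 lower in HN6, among them VSIR from 17.7 ± 1.26 to 34.2 ± 0.649 CPM (edgeR adjusted p = 2.56e-04), and 2 higher and 5 lower in Cal27. All genes were called there at 14.0%, 15.4% and 39.4%. In untreated HN4, CD24 was at 20.4 ± 0.608 CPM, VSIR at 10.2 ± 1.66 and NCR3LG1 at 22.8 ± 2.31. The treated Cal27 libraries held HN4-only genes, and the part of HN4 transcripts in their changes was not tested.

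All 8 natural killer cell ligands were tested. ULBP1, a ligand of NKG2D, rose in HN6 with IL-8 from 0.708 ± 0.105 to 3.17 ± 0.470 CPM (edgeR adjusted p = 3.25e-04) and fell in Cal27 with ACLY from 10.1 ± 1.03 to 0.867 ± 0.214 CPM (edgeR adjusted p = 4.67e-15) and with IL-8 from 8.89 ± 0.491 to 3.55 ± 1.58 CPM (edgeR adjusted p = 3.67e-04). The counts with ACLY were 2 higher and 3 lower in HN4 as labelled, 2 and 2 in HN6, and 2 and 3 in Cal27, and with IL-8 they were 0 and 1, 1 and 1, and 0 and 2. In HN4, HN6 and Cal27, all genes were called at 38.1%, 51.6% and 63.2% with ACLY and at 14.0%, 15.4% and 39.4% with IL-8. Of the 9 receptors of the ligands, 3 were tested with ACLY and 4 with IL-8. SIRPA, the receptor of CD47, rose in Cal27 with ACLY from 20.3 ± 1.25 to 36.8 ± 2.88 CPM (edgeR adjusted p = 9.17e-11) and with IL-8 from 19.0 ± 0.604 to 32.0 ± 4.34 CPM (edgeR adjusted p = 1.02e-05). In untreated HN4, SIRPA was at 49.7 ± 1.47 CPM and ULBP1 at 2.85 ± 0.669. The part of HN4 transcripts in these Cal27 changes was not tested.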
